A study of Mus musculus with 5 samples.

Results

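The genes described here are 10 components of transforming growth factor beta (TGF-beta) signalling, namely the ligand genes Tgfb1, Tgfb2, Tgfb3 and Inhba, the receptor genes Tgfbr1, Tgfbr2 and Tgfbr3, and the Smad genes Smad2, Smad3 and Smad4. They were chosen by name, with earlier results of these data known, and each has 1 row of its own among the 28092 rows of the deposited gene table. The RNA came from forelimbs of E11.5 mouse embryos (47 to 48 somites) on a background mixed from C57BL/6 and Swiss Webster. In the Prmt5cKO group, 2 samples of genotype Prx1Cre+/-;Prmt5c/c, the Cre recombinase acts in limb bud mesenchyme on conditional copies of Prmt5, which encodes an arginine methyltransferase. The Control group has 3 samples labelled only as control, and the labels do not say whether they carry Cre or a conditional allele. The submitters call the samples biological replicates. How many embryos each holds is not given.

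TGF-beta ligands are secreted as latent dimers, are released near the cell surface, and bring together a type II and a type I receptor kinase. The type I receptor then phosphorylates Smad2 and Smad3, which join Smad4 and enter the nucleus to regulate transcription. In the limb this branch is known for roles in tendon and joint formation, in matrix production and in the condensation of cartilage precursors.

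The table gives the authors' FPKM (fragments scaled to transcript length and library total), 1 value per genotype over its samples, with their log2 fold change (Prmt5cKO over Control), called log2 change below, and a q-value (an adjusted p-value). No value per sample was available here, so no value below has an SD, the depth of each sample is unknown, and every q is the authors' own. Prmt5 stood at 12.5 FPKM in Prmt5cKO and 40.9 FPKM in Control, 30.6% of the Control value. Xist stood at 0.392 FPKM in Prmt5cKO and 87.3 FPKM in Control, and the Y-linked Ddx3y at 21.8 FPKM in Prmt5cKO and 0.0840 FPKM in Control. Embryo sex and genotype cannot be told apart for any difference below. None of the 10 genes lies on a sex chromosome. In whole limbs, fewer cells of a type and less RNA per cell cannot be told apart either. Of 9 limb mesenchyme markers with a row of their own 7 were tested. Of these, 2 rose (Lhx2 and Tbx3) and none fell at the authors' q under 0.05. That stands beside 4.83% rising and 19.3% falling among all tested genes. Of the 9, 6 were higher and 3 lower in Prmt5cKO. Their summed level was 511 FPKM in Prmt5cKO and 496 FPKM in Control. Prrx1, a factor that marks this mesenchyme, was among the lower ones. It stood at 107 FPKM in Prmt5cKO and 122 FPKM in Control, without a test.

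Transcripts of the TGF-beta receptors, of one ligand and of one Smad were lower in Prmt5cKO forelimbs. A gene was counted as changed where the genotypes' mean reached 1 FPKM and the authors' q was under 0.05. By this rule Tgfb2, Tgfbr1, Tgfbr2, Tgfbr3 and Smad3 fell, and none of the 10 rose. Of the other 5, Tgfb3 and Smad4 did not pass, Smad2 was not tested by the authors, and Tgfb1 and Inhba lay below 1 FPKM. Among 10617 single genes at this level with an authors' test, 24.1% changed, with 19.3% falling and 4.83% rising. The falls were modest. With a fold of at least 1.5 required as well, 1 of the 5 is left, Tgfbr3. The share of all tested genes left by that rule was not computed.

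**Figure D1:**
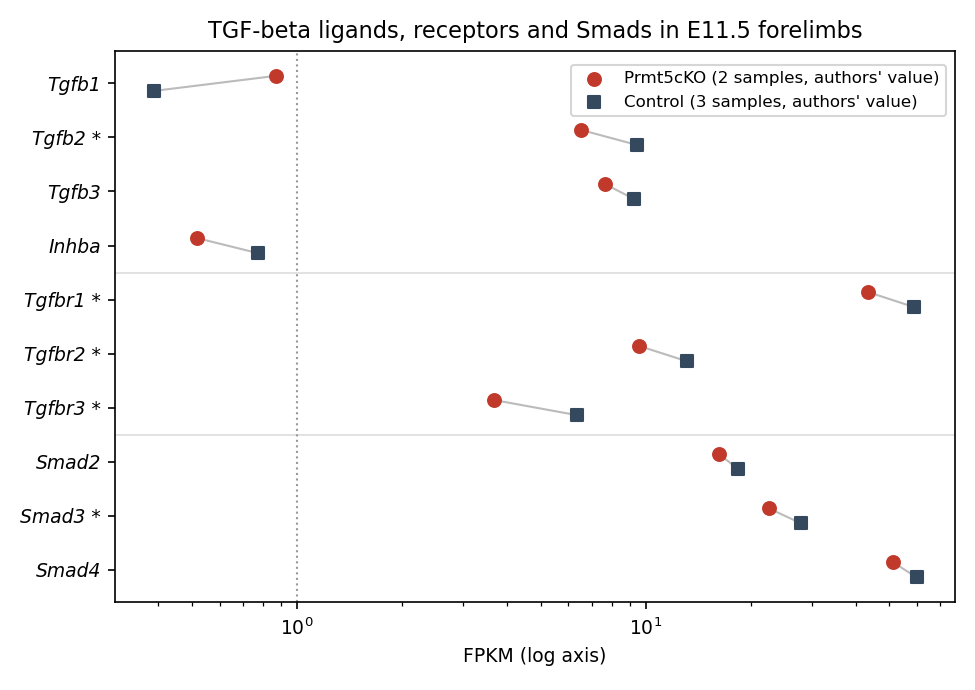
Authors' FPKM of the 10 genes on a log axis, with Prmt5cKO as circles and Control as squares, 1 value per genotype; asterisks mark the 5 genes that fell, and the dotted line is at 1 FPKM. In 9 of the 10 genes the Prmt5cKO value lies left of the Control value, and Tgfb1 is the exception.

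Of the 3 TGF-beta ligand genes, Tgfb2 fell, Tgfb3 did not pass and Tgfb1 lay below 1 FPKM. The difference between Tgfb2 and Tgfb3 in their ratios was not tested. Tgfb2, whose ligand depends most on the co-receptor betaglycan for high-affinity binding, had 6.51 FPKM in Prmt5cKO and 9.44 FPKM in Control, or 68.9% of Control. The authors' deposited table gives a log2 change of -0.54 (q = 2.28e-09). Tgfb3, a ligand needed for palate fusion, had 7.63 FPKM in Prmt5cKO and 9.25 FPKM in Control, and its q of 0.195 in the authors' deposited table did not pass. Tgfb1, the isoform best known from immune cells and platelets, had 0.871 FPKM in Prmt5cKO and 0.388 FPKM in Control. The authors' deposited table gives a log2 change of 1.17 (q = 0.0552), so it missed both the level and the q. Inhba, which encodes the subunit of activin A, had 0.515 FPKM in Prmt5cKO and 0.771 FPKM in Control, with q = 0.485 in the authors' deposited table. The summed level of Tgfb1, Tgfb2 and Tgfb3 was 15.0 FPKM in Prmt5cKO and 19.1 FPKM in Control. Tgfb2 made up 43.4% of that sum in Prmt5cKO and 49.5% in Control. Tgfb3 made up 50.8% in Prmt5cKO and 48.5% in Control, and Tgfb1 5.80% in Prmt5cKO and 2.03% in Control. Tgfb2 and Tgfb3 thus supplied most of the ligand transcripts in both genotypes.

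Markers of macrophages, which are known to make Tgfb1, were higher in Prmt5cKO. Of 14 with a row of their own, all tested, 12 rose (85.7%) and none fell, beside 4.83% rising and 19.3% falling among all tested genes. All 14 were higher in Prmt5cKO, and their summed level was 81.1 FPKM in Prmt5cKO and 42.8 FPKM in Control. None was at 0 in either genotype. Csf1r, the macrophage growth factor receptor, had 5.57 FPKM in Prmt5cKO and 3.36 FPKM in Control. The part of macrophages in the Tgfb1 values was not tested.

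The start regions of Tgfb2 and Tgfb1 are shown because these ligand genes lay on opposite sides of the Control level. Each line gives the 300 bases from 250 before the start site, 5′ to 3′ on the gene's strand, from RefSeq on GRCm38.p6. Capitals mark matches, on either strand, to CAGAC (the Smad-binding element), CACGTG (an E-box), GGGCGG (the GC box that Sp1 binds), TATAAA (the TATA box) or TGACGTCA (the cAMP response element). The Tgfb2 region is chr1:186705940-186706239 on the minus strand and that of Tgfb1 is chr7:25686752-25687051 on the plus strand.
Tgfb2: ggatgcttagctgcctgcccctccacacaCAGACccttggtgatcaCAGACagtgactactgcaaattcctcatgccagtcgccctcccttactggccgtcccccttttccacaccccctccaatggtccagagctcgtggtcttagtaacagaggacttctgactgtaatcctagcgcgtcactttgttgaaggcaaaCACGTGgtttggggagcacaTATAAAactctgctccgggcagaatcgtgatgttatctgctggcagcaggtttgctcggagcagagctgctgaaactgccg
Tgfb1: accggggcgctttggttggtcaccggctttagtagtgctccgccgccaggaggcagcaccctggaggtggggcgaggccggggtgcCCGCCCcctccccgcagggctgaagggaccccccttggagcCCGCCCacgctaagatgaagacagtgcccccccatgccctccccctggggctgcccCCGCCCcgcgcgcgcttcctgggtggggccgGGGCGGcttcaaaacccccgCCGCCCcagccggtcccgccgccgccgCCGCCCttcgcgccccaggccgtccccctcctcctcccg
The Tgfb2 window holds a TATA box starting at -31 from the start site, an E-box at -51 and 2 Smad-binding elements at -221 and -204. The Tgfb1 window holds 6 GC boxes and no match to the other motifs. The motifs are short and common. Among 32851 RefSeq windows of this length, CAGAC or its complement occurs in 49.6%, the GC box in 35.7%, the TATA box in 13.6%, the E-box in 7.15% and the cAMP response element in 1.79%.

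All 3 receptor genes fell. Tgfbr3 encodes betaglycan, the co-receptor that presents ligand to the signalling receptors, and had 3.68 FPKM in Prmt5cKO and 6.36 FPKM in Control, or 57.8% of Control. Its log2 change of -0.79 (q = 3.34e-08, authors' deposited table) was the lowest of the 10. Tgfbr2, the type II receptor kinase, had 9.58 FPKM in Prmt5cKO and 13.1 FPKM in Control, with a log2 change of -0.45 (q = 1.11e-08, authors' deposited table). Tgfbr1, the type I receptor kinase that phosphorylates the Smads, had 43.4 FPKM in Prmt5cKO and 58.8 FPKM in Control, with a log2 change of -0.44 (q = 0.00192, authors' deposited table). The signalling receptors were lower by like amounts, at 73.2% of Control for Tgfbr2 and 73.7% for Tgfbr1. The level of Tgfbr1 over that of Tgfbr2 was 4.53 in Prmt5cKO and 4.49 in Control. Tgfbr3 over Tgfbr2 was 0.384 in Prmt5cKO and 0.486 in Control.

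The start regions of the signalling receptors are shown because their transcripts fell by like amounts, with the same capitals as above. The first of the RefSeq windows of Tgfbr1, at the start of the full-length gene, is chr4:47352972-47353271 on the plus strand, and that of Tgfbr2 is chr9:116175314-116175613 on the minus strand.
Tgfbr1: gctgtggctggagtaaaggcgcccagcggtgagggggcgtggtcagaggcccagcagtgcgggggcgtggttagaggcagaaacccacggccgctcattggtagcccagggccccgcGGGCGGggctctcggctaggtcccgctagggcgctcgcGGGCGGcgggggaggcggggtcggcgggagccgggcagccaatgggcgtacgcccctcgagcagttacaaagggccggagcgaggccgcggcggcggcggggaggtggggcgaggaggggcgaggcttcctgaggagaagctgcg
Tgfbr2: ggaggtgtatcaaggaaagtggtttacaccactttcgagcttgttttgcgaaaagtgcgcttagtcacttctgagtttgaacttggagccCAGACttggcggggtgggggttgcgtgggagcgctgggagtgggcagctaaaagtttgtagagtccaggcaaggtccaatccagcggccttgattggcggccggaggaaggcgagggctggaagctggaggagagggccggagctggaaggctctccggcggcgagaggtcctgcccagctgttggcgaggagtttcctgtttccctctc
These 2 windows share no motif of those searched. That of Tgfbr1 holds 2 GC boxes, starting at -133 and -95, and that of Tgfbr2 holds 1 Smad-binding element at -160. A second RefSeq window of Tgfbr1, chr4:47385966-47386265, not shown, holds a Smad-binding element at -203.

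Of the Smad genes, Smad3 fell. Smad3, which binds DNA directly, had 22.5 FPKM in Prmt5cKO and 27.8 FPKM in Control, or 80.8% of Control, with a log2 change of -0.31 (q = 0.0400, authors' deposited table). Smad4, the partner shared with BMP signalling, had 51.2 FPKM in Prmt5cKO and 59.8 FPKM in Control, with q = 0.0578 in the authors' deposited table. Smad3 and Smad4 thus stand just inside and just outside the threshold. Smad2 had 16.2 FPKM in Prmt5cKO and 18.4 FPKM in Control, or 88.1% of Control. The level of Smad4 over the sum of Smad2 and Smad3 was 1.32 in Prmt5cKO and 1.29 in Control.

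The order of the levels per transcript length was nearly the same in both genotypes. Smad4, Tgfbr1, Smad3, Smad2 and Tgfbr2 were the 5 highest in that order in Prmt5cKO and in Control, and Tgfbr3 was the eighth in both. Tgfb3 lay above Tgfb2 in Prmt5cKO and below it in Control, and Tgfb1 above Inhba in Prmt5cKO and below it in Control. Without values per sample, neighbours in this order cannot be set against their spread.

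Most genes leaned downwards, which bears on each ratio. Over 11674 single genes with a mean of at least 1 FPKM, 69.8% were lower in Prmt5cKO and the median log2 ratio of Prmt5cKO over Control FPKM was -0.13. Relative to that median the log2 ratios were -0.66 for Tgfbr3, -0.41 for Tgfb2, -0.32 for Tgfbr2, -0.31 for Tgfbr1 and -0.18 for Smad3. Those of Tgfb3, Smad4 and Smad2 were -0.15, -0.09 and -0.05. Only 3.42% of all these genes had a lower ratio than Tgfbr3, and 9.33% a lower one than Tgfb2, but 25.6% had a lower ratio than Smad3 and 41.7% than Smad2. With a pseudocount of 1 FPKM, the median log2 ratio was -0.27 over the 10 genes, which include Tgfb1 and Inhba below 1 FPKM. Over the 8 with a mean of at least 1 FPKM it was -0.35, and over all genes at that level -0.12.

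**Figure D2:**
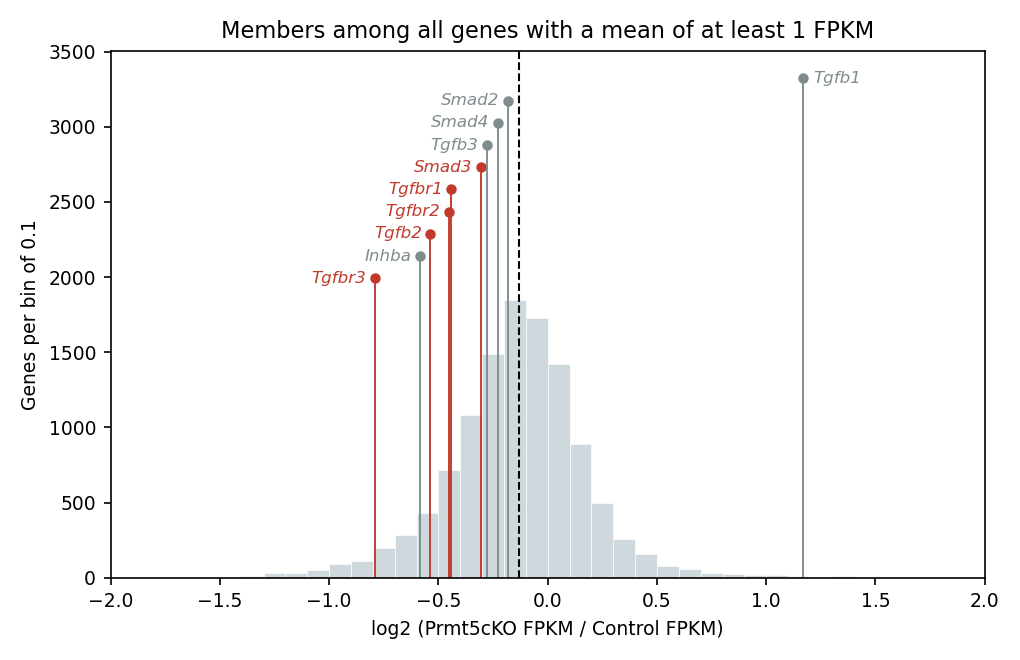
Histogram of the log2 ratio of Prmt5cKO over Control FPKM for single genes with a mean of at least 1 FPKM, in bins of 0.1 (11629 genes in the plotted range), with a stem for each of the 10 genes and a dashed line at the median of all genes. The 5 genes that fell (red) lie between -0.79 and -0.31, and of the grey stems, Tgfb1 and Inhba are themselves below 1 FPKM.

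The genes that fell have long transcripts. The 5 tested members whose longest GENCODE M21 transcript is among the longest 25% of the tested genes, above 4656 bases, and whose mean reaches 1 FPKM are the 5 that fell. Smad2, at 8089 bases but not tested by the authors, and Inhba, at 6390 bases but below 1 FPKM, also exceed that length and were not called. Tgfb3 and Smad4 are in the class of 25% below that. Among all tested genes with a length, 26.3% fell in the longest 25% and 13.6% in the shortest 25%. The part of transcript length in the falls was not tested. By the mean level, 22.9% of genes from 5 to under 20 FPKM fell and 18.2% of those from 20 to under 80 FPKM. Annotated genes share exon bases with Tgfb2 and Tgfb3 on the opposite strand and with Tgfbr3 on the same strand, and the labels do not say whether fragments were assigned by strand.

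In GRCm38 the 3 receptor genes lie on chromosome 4 (Tgfbr1, from 47353222 to 47414931), chromosome 9 (Tgfbr2, from 116084293 to 116175360) and chromosome 5 (Tgfbr3, from 107106570 to 107289629). Tgfb2 lies on chromosome 1 from 186622792 to 186705989 and Smad3 on chromosome 9 from 63646767 to 63757994. The genes that fell are thus spread over 4 chromosomes.

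Among genes that hold TGF-beta family ligands latent or control access to them, 9 fell. Of 20 such extracellular genes and surface partners, 16 reached 1 FPKM and 14 of these were tested, of which 9 fell and none rose. That is 64.3% of the tested, beside 19.3% of all tested genes. The list was chosen with earlier results of these data known, so these shares are a description and not a test. Dcn encodes decorin, a proteoglycan that binds TGF-beta, and had 3.17 FPKM in Prmt5cKO and 7.45 FPKM in Control, with a log2 change of -1.23 (authors' deposited table). Fstl1, a secreted glycoprotein related to follistatin and the most abundant of the list, had 98.5 FPKM in Prmt5cKO and 163 FPKM in Control. Itgb8, the integrin chain that frees latent TGF-beta together with the alpha v chain, had 3.22 FPKM in Prmt5cKO and 5.24 FPKM in Control, with q = 7.11e-07 in the authors' deposited table. Itgav, the alpha v chain, did not pass, with 18.3 FPKM in Prmt5cKO and 20.2 FPKM in Control. The latent binding protein genes Ltbp1 and Ltbp3 fell, with 22.5 and 1.45 FPKM in Prmt5cKO, against 27.9 and 2.40 FPKM in Control. Fbn1, the fibrillin to which latent complexes are bound, had 11.2 FPKM in Prmt5cKO and 14.8 FPKM in Control. Thbs1, a matrix protein that can activate the latent complex, had 21.7 FPKM in Prmt5cKO and 29.0 FPKM in Control, and Fst, the secreted activin antagonist, had 3.29 FPKM in Prmt5cKO and 5.11 FPKM in Control. The ninth was Ltbp4. A minimum mean of 5 FPKM leaves 5 of these falls, and so does a required fold of at least 1.5. For neither setting was the share of all tested genes computed.

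Of 24 genes that regulate Smad signalling 23 reached 1 FPKM and 19 were tested, of which 1 fell and none rose; that is 5.26% of the tested falling, beside 19.3% of all tested genes. Tgif1, a repressor that binds Smads, was the gene that fell, with 25.96 FPKM in Prmt5cKO and 32.5 FPKM in Control and q = 0.0115 in the authors' deposited table. Strap, a receptor-binding protein and the most abundant of the list, had 90.9 FPKM in Prmt5cKO and 83.5 FPKM in Control and did not pass. Of 13 genes of the activin and nodal branch 7 reached 1 FPKM and 5 were tested, of which Gdf11 fell and none rose; that is 20% of the tested falling, near the 19.3% of all tested genes. Gdf11 encodes a ligand known for setting axial identity and had 16.97 FPKM in Prmt5cKO and 20.97 FPKM in Control, with q = 0.0334 in the authors' deposited table. At a q under 0.01 neither list has a call, and the share of all tested genes at that q was not computed.

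Among genes known to respond to TGF-beta, 8 fell, most of them genes of the matrix. Of 25 listed, 21 reached 1 FPKM and 18 were tested, of which 8 fell and none rose. Of the tested, 44.4% thus fell, beside 19.3% of all tested genes. The 8 encode matrix proteins, an inhibitor of matrix proteases and a tendon factor. The part of TGF-beta signalling in these falls was not tested. Postn, which encodes periostin, had 4.70 FPKM in Prmt5cKO and 9.46 FPKM in Control, with a log2 change of -1.01 (authors' deposited table, where q is 0). Scx, the transcription factor of tendon precursors, had 22.3 FPKM in Prmt5cKO and 43.3 FPKM in Control, with q = 2.17e-07 in the authors' deposited table. Tgfbi, a matrix protein named for its induction by TGF-beta, had 19.3 FPKM in Prmt5cKO and 36.6 FPKM in Control, with q = 1.11e-09 in the authors' deposited table. The collagen genes Col3a1, Col1a2 and Col1a1 had 111, 90.0 and 8.83 FPKM in Prmt5cKO, against 184, 127 and 13.7 FPKM in Control. Fn1, which encodes fibronectin, had 37.2 FPKM in Prmt5cKO and 46.8 FPKM in Control, and Timp3, the protease inhibitor, had 15.2 FPKM in Prmt5cKO and 19.5 FPKM in Control. Genes of the direct Smad response are named here after their values were seen. Smad7, the feedback inhibitor, had 10.3 FPKM in Prmt5cKO and 9.93 FPKM in Control, with q = 0.712 in the authors' deposited table. Pmepa1, another feedback gene, had 1.51 FPKM in Prmt5cKO and 1.66 FPKM in Control. Neither passed. Skil, a Smad corepressor induced by the pathway, had 18.4 FPKM in Prmt5cKO and 22.3 FPKM in Control and was not tested by the authors. A required fold of at least 1.5 leaves 5 of the 8 falls, without a share of all tested genes to set beside it. These lists share a few genes, and the difference between lists was not tested.

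**Figure D3:**
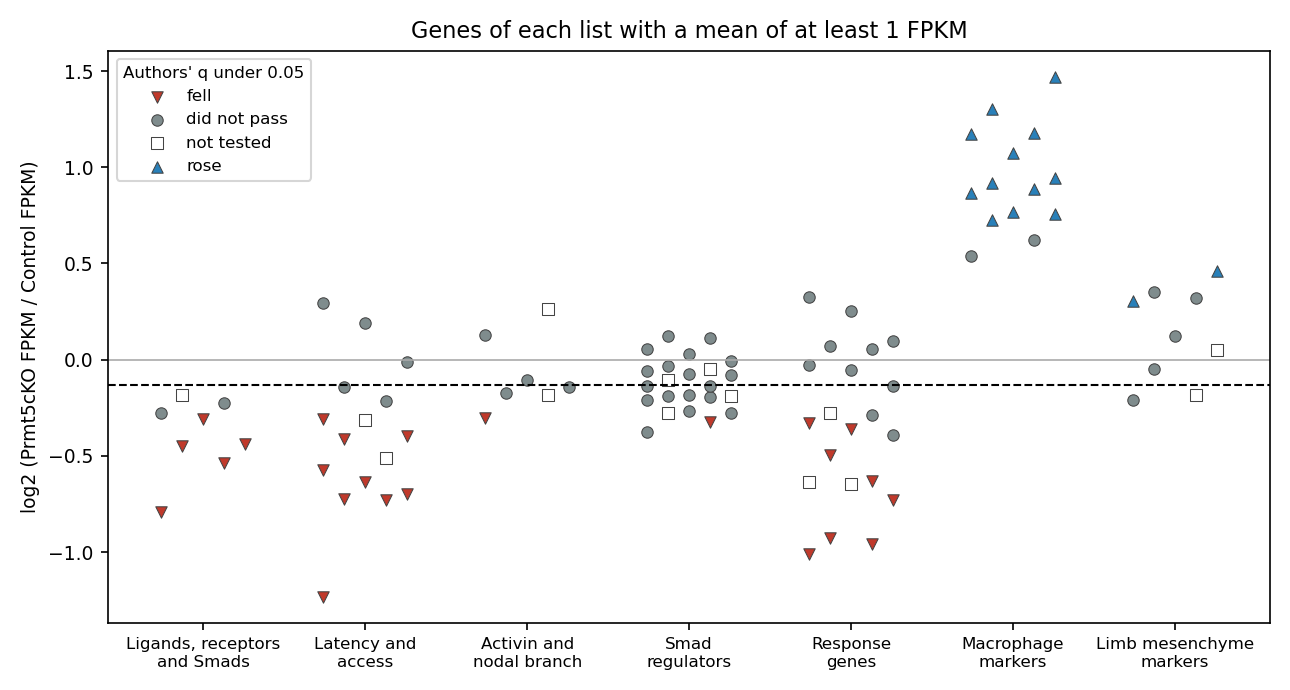
Log2 ratio of Prmt5cKO over Control FPKM for each gene with a mean of at least 1 FPKM in 7 lists, with the call at the authors' q under 0.05 shown by symbol, the dashed line at the median of all genes and horizontal offsets for legibility only. The 9 falls of the latency and access list and the 8 of the response list reach down to -1.23 and -1.01, while 18 of the 19 tested Smad regulators did not pass.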

How the data were processed

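RNA-seq of E11.5 forelimbs was deposited as a gene table for the whole series, used here for Prmt5cKO (2 samples) and Control (3 samples), grouped by sample title. Per the submitters' processing notes, the tools were Cufflinks 2.1.1, TopHat2 2.0.10 and Bowtie2 2.1.0 on mm10, with no roles or settings named. Per the file headers, the authors deposited 1 FPKM value per genotype, the log2 fold change and a q-value, an adjusted p-value. The annotation, the test, the adjustment and how replicates were combined were not given in the sources used here, so whether q measures the spread between replicates is unknown. A second deposited table of 208 rows, with absolute log2 fold changes of at least 1.003, holds none of the 10 genes. Over the 202 genes found in both, the largest FPKM difference between the 2 was 27.3, and no FPKM above comes from the second.

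Over 20663 rows the deposited log2 fold changes were within 1.28e-05 of the log2 of the FPKM ratio. Rows with both a fold of 0 and a q of 1 were taken as untested (1057 of 11674 single genes with a mean of at least 1 FPKM). Rows naming no gene (4367 rows, 2.08% of the summed FPKM in Prmt5cKO and 1.94% in Control) and rows naming several (597) were left out, and of repeated symbols the row with the highest mean was kept. FPKM by itself does not correct for composition, and whether the authors' library scaling did was not given in the sources used here.

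A call needs a mean of at least 1 FPKM and an authors' q under 0.05. The limma fit planned for values per sample could not be run. The members and lists were chosen with earlier results of these data known. Named are the 10 members, Prmt5 and, of each pathway list, up to 8 called genes with the lowest q and the gene with the highest mean; others were named after their values were seen. Transcript lengths (95.4% of tested genes) and gene coordinates are from GENCODE M21, and promoter windows, found for 6 of the members and searched for 5 motifs, from RefSeq GRCm38.p6. Python 3.11.15 with pandas 2.3.3 and numpy 2.4.6 was used. The code of the counting and rescaling steps was run on simulated data with set answers, which checks the code and not the calls.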

Additional observations from a re-analysis of the deposited data

How the results depend on the processing

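Relative to the median of all genes, Tgfb1 stayed above 0 and the other 9 genes below it; that step subtracts 1 constant from every gene. The recomputed counts rest on the authors' q, and 1 of them held a rise, that of Acvr2b at a q under 0.1. A required fold of at least 1.5 left 1 of the 10 members, 5 latency and access genes, 5 response genes, and 0 genes each of the activin and nodal branch and the Smad regulators. A minimum mean of 5 FPKM left 5 latency and access genes. At a q under 0.01 both the activin and nodal branch and the Smad regulators had 0 calls, and at a q under 0.1 the activin and nodal branch had 2. The shares of all tested genes at these altered settings were not computed, so these counts cannot be set against genes at large. The members' median log2 ratio of -0.27 was -0.37 with pseudocounts of 0.1 and 0.01 FPKM, and -0.16 relative to the median of all genes.

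No paired analysis was possible because the table holds 1 value per genotype. For the same reason no replicate was left out, and unadjusted p-values behind counts of 0 were not available here.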

Other observations

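The other type I and type II receptor genes of the TGF-beta superfamily were listed after the values of the TGF-beta receptors were seen. Of 10 such genes 8 reached a mean of 1 FPKM, with 6 lower and 2 higher in Prmt5cKO, beside 69.8% lower among all genes at this level. Of the 7 tested, 1 rose, 1 fell (14.3% each, beside 4.83% rising and 19.3% falling among all tested genes) and 5 did not pass. Acvr1, a type I receptor for BMPs and activins, rose to 5.63 FPKM in Prmt5cKO, against 4.49 FPKM in Control, with q = 0.0466 in the authors' deposited table. Bmpr1b, a BMP receptor of the cartilage condensations, fell to 9.64 FPKM in Prmt5cKO, against 15.8 FPKM in Control, with a log2 change of -0.71 (authors' deposited table). Bmpr1a, the most abundant of them, had 54.2 FPKM in Prmt5cKO and 63.0 FPKM in Control, and Bmpr2, the type II BMP receptor, had 15.7 FPKM in Prmt5cKO and 18.7 FPKM in Control, and neither passed. Acvr2b, a type II receptor for activins, had 15.9 FPKM in Prmt5cKO and 14.6 FPKM in Control, with q = 0.0748 in the authors' deposited table. The difference between these genes and the 3 TGF-beta receptor genes was not tested.

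Of 8 tested endothelium markers 2 fell and none rose, and the same counts held for 8 tested muscle markers, so 25% fell in each list, near the 19.3% of all tested genes. Of 10 tested surface ectoderm markers 3 rose (30%, beside 4.83% of all tested genes) and 1 fell (10%, beside 19.3%).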
